A study of Mus musculus with 6 samples.

Results

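The accessibility of chromatin was compared between mouse lung fibroblasts grown on a soft silicone surface of 0.2 kPa and the same kind of cells grown on tissue-culture plastic. All regions of the authors' deposited table for this pair of cultures were taken, 2114 regions, against 64217 regions in the table of 32 kPa silicone against plastic. The table holds regions with a log2 difference of at least 1 and an FDR (the authors' p-value adjusted over regions) of at most 0.05, and in each of the 2114 regions the higher culture was plastic. The study sorted fibroblasts by their GFP from lungs of Col1a1-GFP transgenic mice, a reporter named for the type I collagen gene Col1a1, so that all groups consist of cells that had activated that reporter. They were kept for 8 days in medium with 10% serum on surfaces coated with collagen I, either PDMS (polydimethylsiloxane, a silicone) of 0.2 kPa, PDMS of 32 kPa or plastic, whose stiffness the labels do not give. Omni-ATAC-seq, which inserts sequencing adapters into open DNA, was carried out on 2 libraries of 50000 cells per culture. A level below is the authors' mean for a culture, in log2 normalised reads per region, and a difference is the log2 level on plastic minus that on 0.2 kPa. Levels are not divided by region length, so a wider region can stand higher. The tables used here give 1 mean per culture, so that neither the spread between libraries nor the depth can be shown, and nothing in the labels ties the 2 libraries of a culture to different animals. The authors' FDR therefore measures the spread between these libraries only, which may be technical.

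Fibroblasts sense the stiffness of what they adhere to through integrins and the contractile actin cytoskeleton. On stiff surfaces they form stress fibres, and the transcriptional co-activators YAP and TAZ, which work with TEAD factors, and MRTF, which works with serum response factor (SRF) at a sequence called the CArG box, move to the nucleus. In the lung, this activated state, the myofibroblast, is known for smooth muscle actin and for the deposition of collagen and elastin during fibrosis. The series as a whole is about the transcriptional control of this mechanical activation of fibroblasts.

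The sequences that carried the comparison at promoters can be read in 6 examples, each given as the 250 bases before the annotated start site (RefSeq, GRCm38), 5′ to 3′ on the gene's strand. The first 4 are shown because they belong to the contractile apparatus or to a noncoding gene with an SRF-type site, and the last 2 because they had the lowest FDR of all 2114 regions. Capitals mark a motif match on either strand: the TEAD letters CATTCC in Acta2, the CArG box in Myl9 and Dnm3os, the GC box GGGCGG in Actn1, and CCAAT in Ift27 and Zfp869. The CArG box was searched as CC, then 6 bases of A or T, then GG, and near matches are not marked. Acta2 holds ccctatatgg and ccttgtttgg, which each depart from these letters by a single base.
Acta2 promoter, chr19:34255374-34255623, minus strand: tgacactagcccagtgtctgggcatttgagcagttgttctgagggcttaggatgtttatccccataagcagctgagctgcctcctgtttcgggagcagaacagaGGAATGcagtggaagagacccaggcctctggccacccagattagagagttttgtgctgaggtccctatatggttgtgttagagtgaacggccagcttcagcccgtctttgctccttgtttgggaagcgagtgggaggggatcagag
Myl9 promoter, chr2:156775214-156775463, plus strand: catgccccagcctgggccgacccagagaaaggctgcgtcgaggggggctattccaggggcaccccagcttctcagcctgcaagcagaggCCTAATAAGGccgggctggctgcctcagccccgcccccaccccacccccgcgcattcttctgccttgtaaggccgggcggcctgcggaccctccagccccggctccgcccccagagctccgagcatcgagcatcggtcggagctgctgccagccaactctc
Dnm3os promoter, chr1:162217373-162217622, plus strand: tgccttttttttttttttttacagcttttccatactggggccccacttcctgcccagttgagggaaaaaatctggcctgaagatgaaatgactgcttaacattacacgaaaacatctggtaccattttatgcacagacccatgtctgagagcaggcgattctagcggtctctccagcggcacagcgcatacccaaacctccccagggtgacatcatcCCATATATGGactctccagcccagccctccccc
Actn1 promoter, chr12:80260364-80260613, minus strand: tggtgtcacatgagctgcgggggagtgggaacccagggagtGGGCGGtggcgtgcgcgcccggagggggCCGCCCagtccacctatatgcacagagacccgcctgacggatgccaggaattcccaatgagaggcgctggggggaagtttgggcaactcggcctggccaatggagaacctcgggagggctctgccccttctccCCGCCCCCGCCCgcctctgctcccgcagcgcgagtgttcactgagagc
Ift27 promoter, chr15:78174082-78174331, minus strand: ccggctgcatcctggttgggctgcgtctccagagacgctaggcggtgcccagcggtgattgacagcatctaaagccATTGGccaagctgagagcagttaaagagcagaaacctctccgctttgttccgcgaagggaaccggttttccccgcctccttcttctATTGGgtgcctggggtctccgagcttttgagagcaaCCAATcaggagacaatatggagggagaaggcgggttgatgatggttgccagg
Zfp869 promoter, chr8:69716903-69717152, minus strand: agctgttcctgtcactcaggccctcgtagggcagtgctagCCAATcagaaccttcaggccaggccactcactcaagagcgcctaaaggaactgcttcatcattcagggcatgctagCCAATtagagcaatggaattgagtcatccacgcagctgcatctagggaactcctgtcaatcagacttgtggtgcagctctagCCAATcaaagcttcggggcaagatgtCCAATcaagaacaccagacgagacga
The match in Acta2 starts 146 bases before the start site, the one in Myl9 161 bases before it and the one in Dnm3os 33 bases before it. Actn1 has 4 GC boxes in this stretch, Ift27 has 3 CCAAT matches and Zfp869 has 4. A match describes the letters of the window and shows no binding.

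The lowest plastic level in the list was 4.94, which 18002 of the 64217 regions in the table of 32 kPa against plastic reached. Most differences lay close to the lower limit of the list. The level on plastic had a median of 5.73 and ran from 4.94 to 8.63, and that on 0.2 kPa had a median of 4.61 and ran from 3.25 to 7.62. In the authors' deposited table the median difference was 1.12, a 2.17-fold ratio, with an interquartile range of 1.05 to 1.22. The highest was 1.85, a 3.61-fold ratio. Of the 2114 regions, 975 (46.1%) differed by 1.1 or less and 53 (2.51%) by 1.5 or more. The authors' FDR was at most 0.01 in 692 regions and at most 0.001 in 131. These values chose the regions and are given as a description.

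**Figure D1:**
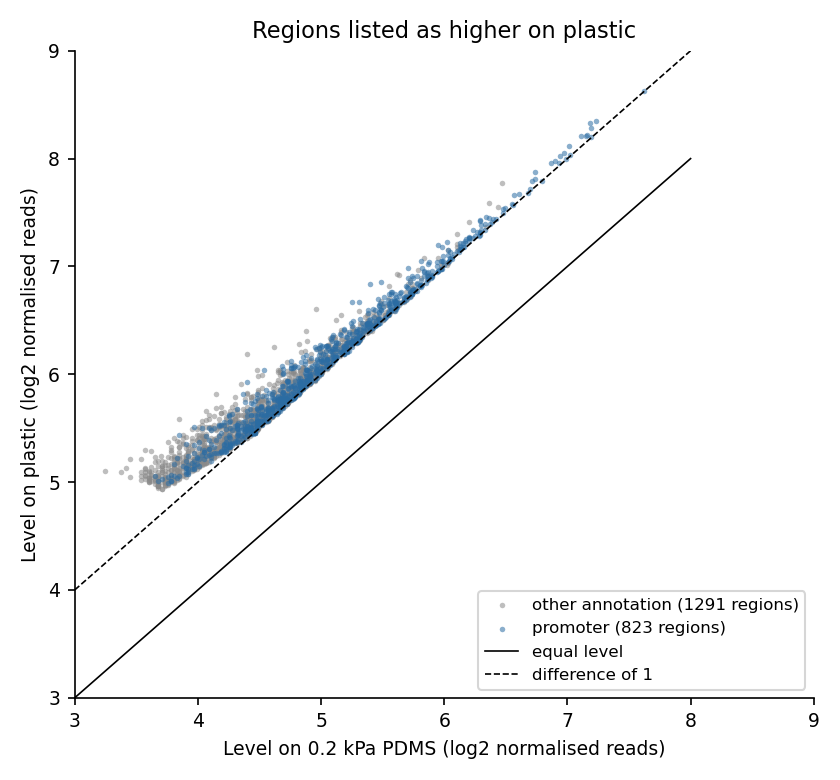
Level of each of the 2114 regions on 0.2 kPa PDMS (x axis) and on plastic (y axis), both as the authors' mean in log2 normalised reads, with promoters in blue and all other annotations in grey. The points follow the dashed line of a difference of 1 at high levels and rise above it at low levels, up to a difference of 1.85.

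For a background, the 32 kPa against plastic table supplied 18002 regions whose plastic level was at or above 4.94, the lowest plastic level in the list. Of these comparison regions, 2110 (11.7%) were overlapped by a listed region. Regions that differed by less than 1 or in the opposite direction are in this background too, since the table of 0.2 kPa against plastic does not list them. The overlapped share was lowest at the bottom of the range, with 8.84% of comparison regions at plastic levels under 5.5, 15.2% from 5.5 to 6, 14.1% from 6 to 6.5, 12.1% from 6.5 to 7 and 10.0% at 7 and above. The size of the difference went the other way. Its median was 1.20 in the lowest of these classes, 1.1 and 1.08 in the next ones, 1.05 at 6.5 to 7 and 1.06 at 7 and above. The FDR followed the level: 2.19% of the listed regions under 5.5 had an FDR of at most 0.01 in the authors' deposited table, against 67.8% from 6 to 6.5 and 100% at 7 and above.

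Promoters made up the largest class, and 89 of the 108 listed regions with a plastic level of 7 and above were promoters. The table's annotation placed 823 regions (38.9%, exact binomial 95% interval 36.8 to 41.0%) at promoters, 594 (28.1%) in introns and 628 (29.7%) between genes. The remaining classes were small, with 24 regions in 5′ UTRs, 17 in coding exons, 12 in exons of noncoding transcripts, 10 at transcription ends and 6 in 3′ UTRs. Among the comparison regions 42.4% were promoters, 26.5% lay in introns and 26.4% between genes. The intervals cover counting error only, and regions are not independent replicates. Listed promoters had a median level of 4.95 on 0.2 kPa and 6.06 on plastic, with a median difference of 1.08. Regions in introns stood at 4.42 and 5.56 with a median difference of 1.16, and those between genes at 4.42 and 5.58 with 1.15. In the authors' deposited table, 48.0% of the listed promoters had an FDR of at most 0.01, against 22.6% of the intron regions and 22.5% of the intergenic ones.

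**Figure D2:**
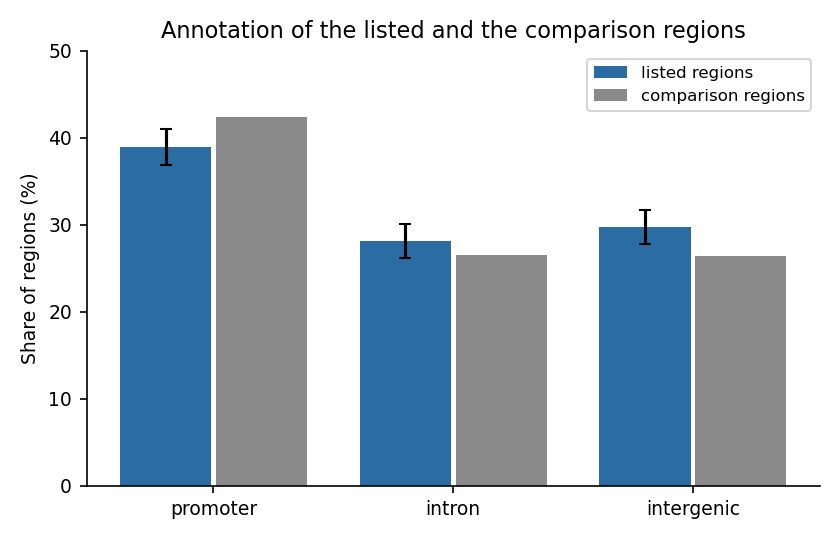
Share of the 2114 listed regions (blue, with exact binomial 95% intervals) and of the 18002 comparison regions (grey) annotated as promoter, intron or intergenic, in percent. Promoters took 38.9% of the listed and 42.4% of the comparison regions, and intergenic regions 29.7% and 26.4%.

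At equal level, promoters and other regions differed in opposite ways at the 2 ends of the range. Under a plastic level of 5.5, 5.88% of promoters among the comparison regions were overlapped by a listed region, against 10.0% of the others. From 5.5 to 6 the shares were 13.1% and 16.7%, and from 6 to 6.5 they were 13.4% and 14.8%. From 6.5 to 7, 12.7% of promoters and 10.8% of other regions were overlapped, and at 7 and above 10.8% and 7.81%. The last share rests on 21 of 269 regions.

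**Figure D3:**
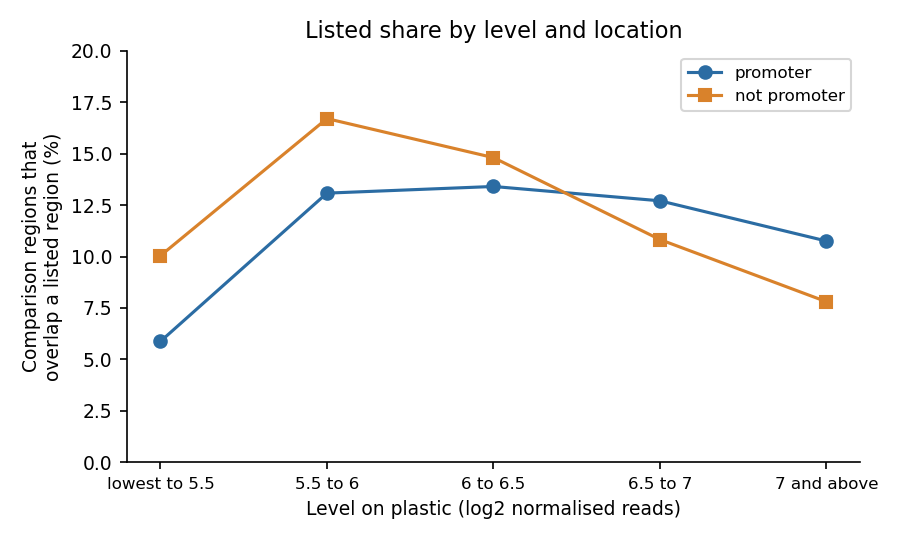
Share of comparison regions overlapped by a region listed as higher on plastic than on 0.2 kPa (y axis, percent), by the level on plastic in log2 normalised reads (x axis), for promoters (blue circles) and all other regions (orange squares). Promoters lie below the other regions in the lowest class (5.88% against 10.0%) and above them in the highest (10.8% against 7.81%).

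The largest differences were found far from start sites. The 53 regions with a difference of 1.5 or more had a median distance of 36.7 kb to the nearest start site, included 4 promoters (7.55%), and had median levels of 3.83 on 0.2 kPa and 5.38 on plastic. The 975 regions at 1.1 or less had a median distance of 0.344 kb and included 490 promoters (50.3%), with median levels of 4.89 and 5.94. By distance, 893 listed regions lay within 1 kb of a start site, 224 at 1 to 10 kb, 693 at 10 to 100 kb and 304 beyond 100 kb. The overlapped share of comparison regions was 10.6%, 9.89%, 12.6% and 16.7% in the same order. Among chromosomes this share ran from 6.21% on the X chromosome (20 of 322 regions) to 15.5% on chromosome 19 (82 of 530).

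Long terminal repeats, the ends of endogenous retroviruses, were the most frequent repeat class among the listed regions. The detailed annotation of 106 regions (5.01%) named one, against 551 (3.06%) of the comparison regions, and 19.2% of those 551 were overlapped by a listed region. Within this class, 42 listed regions lay in ERVL-MaLR elements, 22 in ERVK, 21 in ERV1 and 19 in ERVL. For ERV1 elements, 22 of 73 comparison regions (30.1%) were overlapped, for ERVL-MaLR 39 of 210 (18.6%). LINE elements accounted for 40 listed regions and SINE elements for 33, with 15.3% and 13.4% of their comparison regions overlapped. A CpG island was named for 56 listed regions, and 8.23% of the comparison regions with that label were overlapped. At listed promoters such as those of Tagln and Rarb, the detailed annotation gave the promoter label and named no island or repeat. The 56 regions may therefore leave out CpG islands at promoters, and the repeat counts may leave out repeats there.

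The level on 32 kPa PDMS at the same regions can be set beside these values from the 32 kPa against plastic table. That table shares the plastic libraries, and at 653 identical intervals its plastic level was 0.01 to 0.02 below the one used above. All 2114 regions overlapped a region of it by at least 1 bp. The intervals can differ between the tables: the plastic levels of the overlapping regions agreed within 0.05 at 1966 regions and not at 148. A level on 32 kPa is printed below only where they agreed within 0.05, and elsewhere the plastic minus 32 kPa value, which comes from that table alone, or no 32 kPa value is given. The level on plastic minus that on 32 kPa had a median of 0.19 (interquartile range 0.04 to 0.36) at the listed regions and of 0.02 over all 18002 comparison regions. The regions were chosen for a high level on plastic, which by itself places plastic above an unselected culture. None of the 2114 regions had an FDR of at most 0.05 between 32 kPa and plastic in the authors' deposited table, and 32 had an unadjusted p under 0.05. Over the comparison regions these numbers were 0 and 93. By class, the median was 0.13 at promoters, 0.23 in introns and 0.25 between genes, against -0.02, 0.04 and 0.06 in the comparison regions of those classes. In 392 regions (18.5%) 32 kPa stood above plastic, and in 270 (12.8%) plastic stood above 32 kPa by 0.5 or more.

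The extremes of that comparison were single regions. At the promoter of Nsf, which encodes an ATPase of vesicle fusion, the level was 4.54 on 0.2 kPa, 6.09 on 32 kPa and 5.57 on plastic. Rapgef6, a guanine nucleotide exchange factor for Rap proteins, had an upstream region at 3.76 on 0.2 kPa and 5.23 on plastic, with a plastic minus 32 kPa value of -0.46. At the other end, a region 4.01 kb upstream of Nfu1, an iron-sulphur cluster assembly gene, stood at 3.95 on 0.2 kPa, 3.39 on 32 kPa and 5.18 on plastic. An intron region of Adamts3, a procollagen peptidase gene, 38.8 kb from its start site, stood at 4.11, 4.23 and 5.33. Its plastic minus 32 kPa value of 1.1 equalled that of Spaca1. Regions of Cd226 (1.41) and Hsfy2 (1.19) had larger values. At Adamts3 32 kPa stood near the soft surface, at Nfu1 below both other cultures and at Nsf above both. None of the regions of Nsf, Rapgef6, Nfu1 and Adamts3 had an FDR of at most 0.05 between 32 kPa and plastic in the authors' deposited table.

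The 10 regions with the largest difference lay in introns or between genes, and several are nearest to genes known from other tissues. An intron region with the pseudogene Gm15694 as its nearest start site (chr16:31994063-31994299, 6.39 kb away) had the highest difference, with a level of 3.25 on 0.2 kPa, 4.42 on 32 kPa and 5.10 on plastic. The next in the authors' deposited table were an intergenic region 86.7 kb from Gm5796 (difference 1.79), an LTR 39.6 kb from the start site of Gabra4, a GABA receptor subunit gene (1.76), and an intron region 31.7 kb from Ms4a1, the gene of the B cell antigen CD20 (1.73). Unc13c, a synaptic vesicle priming gene, followed at 1.73 and Lyzl1, a lysozyme-like gene, at 1.72, then 1810013L24Rik at 1.70 and Pdha2, a testis form of a pyruvate dehydrogenase subunit, at 1.67 in the authors' deposited table. A region upstream of Mir1897 differed by 1.66 in that authors' deposited table. At Scd2, which encodes a stearoyl-CoA desaturase of fatty acid synthesis, a CpG-rich intergenic region 9.38 kb upstream (chr19:44284118-44284471) stood at 4.96 on 0.2 kPa, 6.22 on 32 kPa and 6.61 on plastic. Its difference of 1.66 had an FDR of 1.29e-05 in the authors' deposited table, the lowest of these 10.

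Of the 5 regions with the lowest FDR, all but that of Dhrs3 were promoters with a plastic level above 8. The promoter of Ift27, a small GTPase gene of transport in cilia, stood at 7.18 on 0.2 kPa, 8.02 on 32 kPa and 8.33 on plastic (chr15:78173943-78174481). The promoter of the zinc finger gene Zfp869 stood at 7.23, 8.14 and 8.35 in the same order (chr8:69716806-69717274). Both had an FDR of 7.1e-08 in the authors' deposited table, with differences of 1.15 and 1.12. Next came a region 16.9 kb upstream of Dhrs3, which reduces retinal to retinol, at 6.47, 7.64 and 7.77, with a difference of 1.29 and an FDR of 4.26e-07 in the authors' deposited table. Tsga10 and the ubiquitin ligase gene Rnf44 followed with their promoters, with differences of 1.09 and 1.11 and FDRs of 4.26e-07 and 4.8e-07 in the authors' deposited table. The promoter of Garem1, an adaptor in growth factor signalling, had the highest level of all on plastic, 8.63 against 7.62 on 0.2 kPa, and Mdh1, cytosolic malate dehydrogenase, stood at 8.22 against 7.16.

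The promoters with the largest difference in the 3 highest level classes were those of Dnm1l, Gins4 and Kctd17. Dnm1l, the dynamin-related gene of mitochondrial fission, stood at 5.40 on 0.2 kPa, 6.35 on 32 kPa and 6.84 on plastic, with a difference of 1.44 and an FDR of 5.85e-05 in the authors' deposited table. Gins4, a subunit of the replicative helicase, stood at 5.95, 7.17 and 7.20, with a difference of 1.25 and an FDR of 6.77e-05 in the authors' deposited table. Kctd17 stood at 4.54, 5.68 and 6.04, a difference of 1.5 in the authors' deposited table. At Gins4 the stiffer cultures stood close together, and at Dnm1l plastic stood 0.48 above 32 kPa.

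At the lower limit of the list, Ttc41, Msantd4 and Kpnb1, an importin gene, had promoters with a difference of 1, with plastic levels of 8.20, 8.03 and 7.68. The promoters of Polg, the mitochondrial DNA polymerase, Selenok and Prkra were just outside it. In overlapping regions of the other 2 tables they stood 0.99 higher on plastic than on 0.2 kPa, with plastic levels of 7.51, 7.23 and 7.96.

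The 2114 regions had 1928 genes as their nearest start sites, and 1762 of these genes had 1 region. A further 148 genes had 2 regions, 16 had 3 and 2 had 4. The 4 regions of Malat1, a nuclear long noncoding RNA, lay 7.67 to 15.5 kb upstream of it, with levels of 5.02 to 6.10 on 0.2 kPa and 6.19 to 7.30 on plastic. Rpl31, a ribosomal protein gene, had its promoter in the list at 5.54 on 0.2 kPa and 6.69 on plastic. Its other 3 regions lay 59.9 to 85.8 kb upstream in introns of a neighbouring transcript. Counting regions within 10 kb of each other, 46 groups held 96 regions, and 3 groups had 3 or more, at Malat1, at Fbln5 and at Tbc1d2b. Genes with 3 listed regions included the matrix genes Sparc and Fbln5, the transcription factor genes Foxp1 and Maf, the adhesion gene Ncam1 and the receptor kinase inhibitor gene Spred2.

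The share of genes with a listed region gives the background for the gene lists that follow. Of 11342 genes with a comparison or listed region, 1928 (17%) had at least 1 listed region by nearest start site, and their leading difference, that of the region with the largest difference, had a median of 1.12. Of these 1928 genes, 1896 had a comparison region, and the rest count only because they were listed. The same holds for the lists below. The share of listed genes depended on how many comparison regions a gene had. It was 12.0% for genes with 1 comparison region, 21.3% with 2 and 42.9% with 5 or more. The regions overlapped are therefore given beside the share of genes of each list. The share of regions over all genes was the 11.7% above. A region is assigned to the nearest start site and may act on another gene. The nearest gene is the one deposited with each comparison of cultures, and it can differ between comparisons at overlapping regions. The listed and the comparison regions of a gene are therefore not always the same stretches. Of all listed regions 38.9% were promoters, and the numbers of promoters in the lists below are small.

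**Figure D4:**
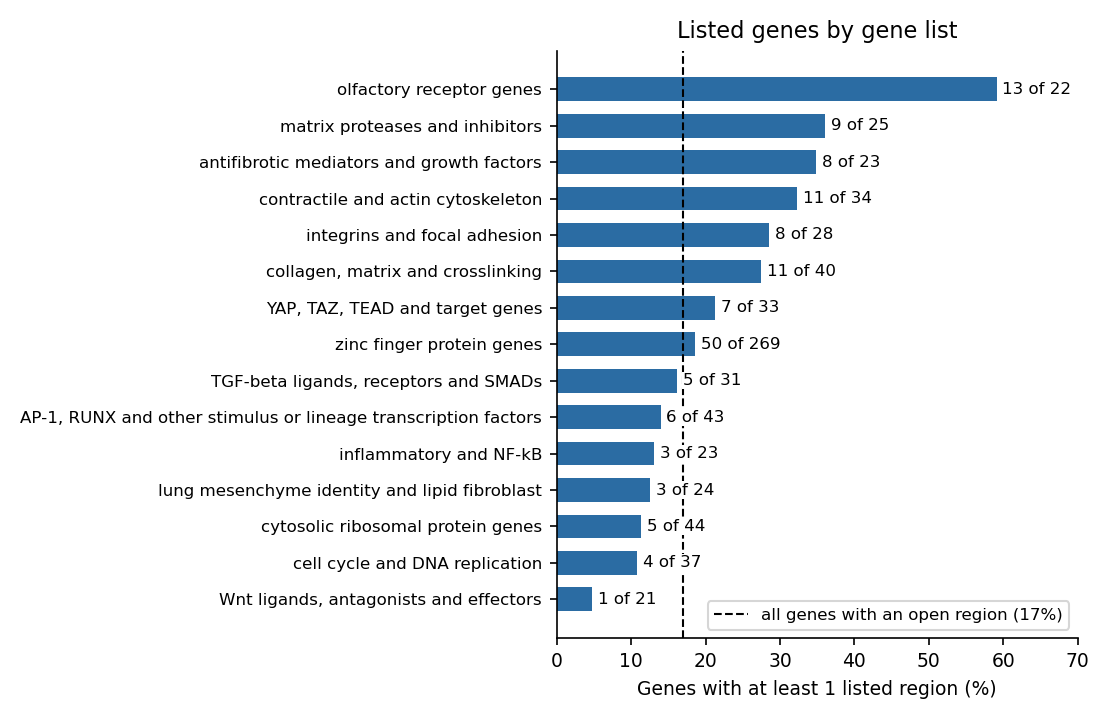
Share of genes with at least 1 region listed as higher on plastic (x axis, percent), for the 12 process lists and 3 gene families, with the number of listed genes of those with a comparison or listed region. The dashed line is the 17% over all such genes, and the lists run from 4.76% (Wnt) to 59.1% (olfactory receptor genes).

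Genes of the contractile and actin cytoskeleton were listed both at promoters and elsewhere. Of 34 genes with a comparison or listed region, 11 (32.4%) had a listed region and 23 had none, and 11 of their 78 comparison regions (14.1%) were overlapped. The median leading difference was 1.22. Of the 11 genes, 7 had a listed promoter. Promoters were 7 of their 13 listed regions, against 38.9% of all listed regions. The promoter of Acta2, smooth muscle actin (chr19:34255213-34255703), whose sequence is given above, stood at 5.38 on 0.2 kPa, 6.49 on 32 kPa and 6.6 on plastic. That of Tagln, an actin-binding protein of smooth muscle (chr9:45935874-45936171), stood at 5.10, 6.34 and 6.36. Both were nearly as high on 32 kPa as on plastic. Their differences were 1.22 (FDR 0.000817) and 1.26 (FDR 0.00177) in the authors' deposited table. The promoter of Myl9, a regulatory myosin light chain, stood at 4.88, 5.95 and 6.18, with a difference of 1.31 and an FDR of 0.003 in the authors' deposited table. Actn1, the crosslinker alpha-actinin, had its promoter at 5.88, 7.06 and 7.04, and a weaker intron region at 3.85, 4.83 and 5.07. Actn4, its close relative, had an intron region 36.8 kb into the gene at 5.10, 6.12 and 6.35, with a difference of 1.24 and an FDR of 0.00204 in the authors' deposited table.

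Both MRTF genes, which encode the co-activators of SRF, were in the contractile list through regions outside their promoters. A region 10.6 kb upstream of Mkl2 (Mrtfb; chr16:13245748-13245965) stood at 3.88 on 0.2 kPa, 4.75 on 32 kPa and 5.41 on plastic, and its difference of 1.54 was the largest of the list in the authors' deposited table. An LTR in an intron of Mkl1 (Mrtfa) stood at 3.68, 4.66 and 5.01. At Mkl2, 32 kPa was nearer to the middle of the other cultures than it was at Acta2 and Tagln. The promoters of the smooth muscle myosin gene Myh11 and of the tropomyosin genes Tpm2 and Tpm3 differed by 1.13, 1.08 and 1.02 in the authors' deposited table. Myh9, non-muscle myosin, had regions 41.4 kb inside and 40.8 kb upstream of its start site, with differences of 1.14 and 1.08 in the authors' deposited table.

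Collagen and matrix genes were reached mainly outside promoters. Of 40 genes, 11 (27.5%) had a listed region, 29 had none, and 17 of their 115 comparison regions (14.8%) were overlapped, with a median leading difference of 1.21. A listed promoter was found for 2 of the 11. Promoters were 2 of their 17 listed regions, against 38.9% of all listed regions. At the promoter of Col1a1 (chr11:94936082-94936316) the level was 4.55 on 0.2 kPa, 5.27 on 32 kPa and 5.61 on plastic, a difference of 1.06 with an FDR of 0.032 in the authors' deposited table. A region 2.46 kb upstream of Col1a1 stood at 5.07, 5.93 and 6.11, a difference of 1.03 with an FDR of 0.013 in the authors' deposited table. All cultures carry a Col1a1-GFP reporter, and reads from reporter sequence shared with the gene cannot be told apart from those of the gene. Thbs2, thrombospondin 2, had its promoter at 4.64, 5.47 and 5.65. The other collagen genes had distal regions only. Col1a2 had one 15.5 kb upstream at 4.68, 5.95 and 6, and another 86.6 kb upstream at 4.33 on 0.2 kPa and 5.57 on plastic, with a plastic minus 32 kPa value of 0.11. Regions of Col5a1 and Col4a1 differed by 1.08 and 1.21 in the authors' deposited table, the latter 80.5 kb upstream in an intron of a neighbouring transcript.

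Among the matrix genes, Eln and Fbln5 had the highest leading differences, 1.55 and 1.40 in the authors' deposited table. The region 16.3 kb upstream of the elastin gene Eln stood at 3.95 on 0.2 kPa, 5.16 on 32 kPa and 5.49 on plastic. Fbln5, fibulin 5, which is required for elastic fibre assembly, had 3 regions within one intron, 19.8 to 23.9 kb from the start site. They stood at 3.6, 4.32 and 4.45 on 0.2 kPa and at 5, 5.65 and 5.49 on plastic, differences of 1.40, 1.34 and 1.04 in the authors' deposited table. At the other end, Fbln2 and the elastin crosslinking enzyme gene Loxl1 differed by 1.01 and 1 in the authors' deposited table, close to the lower limit. Sparc, a collagen-binding matricellular gene, was listed at its 5′ UTR (5.12, 6.38 on 32 kPa and 6.27), in an intron (4.49, 5.54 and 5.68) and 13.2 kb upstream (3.78, 4.68 and 5.04). Vcan, the proteoglycan versican, had an intron region at 4.65, 5.95 and 5.86.

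In the YAP and TAZ list, regions of upstream kinases were listed beside those of Yap1, Vgll3 and the target genes Asap1 and Tgfb2. The region given to Asap1 lay 243.6 kb away, with a difference of 1.06 and an FDR of 0.0395 in the authors' deposited table. Tgfb2 is also counted in the TGF-beta list below. The target genes Ctgf, Cyr61, Ankrd1, Amotl2 and Axl of this list had no listed region. Of 33 genes, 7 (21.2%) had a listed region and 26 had none, and 7 of 87 comparison regions (8.05%) were overlapped, with a median leading difference of 1.31. The promoters of Stk3 (Mst2), Lats1 and Taok1 were the 3 promoters among them. These kinases belong to the Hippo cascade, which is known to restrain YAP and TAZ. Stk3 (chr15:35155664-35156031) stood at 6.02 on 0.2 kPa, 7.03 on 32 kPa and 7.23 on plastic, with a difference of 1.21 and an FDR of 5.17e-05 in the authors' deposited table. Lats1 stood at 4.69, 5.90 and 6.01, with a difference of 1.32 and an FDR of 0.00352 in the authors' deposited table. Yap1 itself had a region 60.5 kb into the gene at 4.21, 5.2 and 5.52. The TEAD cofactor gene Vgll3 had a region 49.4 kb upstream at 4.67, 5.88 and 6.04, with a difference of 1.37 and an FDR of 0.00261 in the authors' deposited table.

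TGF-beta genes numbered 5 of 31 (16.1%) with a listed region, 26 had none, and 5 of 85 comparison regions (5.88%) were overlapped, below the share over all regions. The median leading difference was 1.12. The ligand gene Tgfb2 had an intron region 10.5 kb from its start site at 4.26 on 0.2 kPa, 5.44 on 32 kPa and 5.66 on plastic, with a difference of 1.40 and an FDR of 0.00677 in the authors' deposited table. Ltbp3, which holds the latent ligand in the matrix, was listed at its 5′ UTR at 4.17 on 0.2 kPa and 5.29 on plastic. Among receptors, the BMP receptor gene Bmpr2 was listed at its promoter at 4.71, 5.66 and 5.72. Of the signal transducers, the Smad3 promoter stood at 5.54, 6.56 and 6.55, with a difference of 1.01 and an FDR of 0.00509 in the authors' deposited table. The corepressor gene Tgif1 had a region 125.8 kb away with a difference of 1.28 in the authors' deposited table.

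Integrin and focal adhesion genes were listed outside promoters, apart from Itga2. Of 28 genes, 8 (28.6%) had a listed region and 20 had none, and 9 of 89 comparison regions (10.1%) were overlapped, with a median leading difference of 1.12. Their leading regions reached at most 5.72 on plastic. The integrin genes were Itgav (4.55 on 0.2 kPa, 5.53 on 32 kPa and 5.69 on plastic, in an intron), Itgb1 (4.72, 5.53 and 5.72, upstream), Itgb5 (4.61, 5.52 and 5.71, in an intron), Itga8 and Itga2, the last at its promoter (4.23, 5.15 and 5.37). Ptk2, focal adhesion kinase, had a region 36.6 kb upstream at 4.57, 5.39 and 5.62, and the stretch-activated channel gene Piezo2 one 67.9 kb upstream at 3.78 on 0.2 kPa and 5.01 on plastic. Tns3, a tensin of adhesions, had intron regions 201.1 and 212.7 kb from its start site, at 4.03 on 0.2 kPa and 5.28 on plastic and at 5.56 and 6.58. The second of these was the highest region of the list on plastic and had its only FDR of at most 0.01, 0.00905 in the authors' deposited table.

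**Figure D5:**
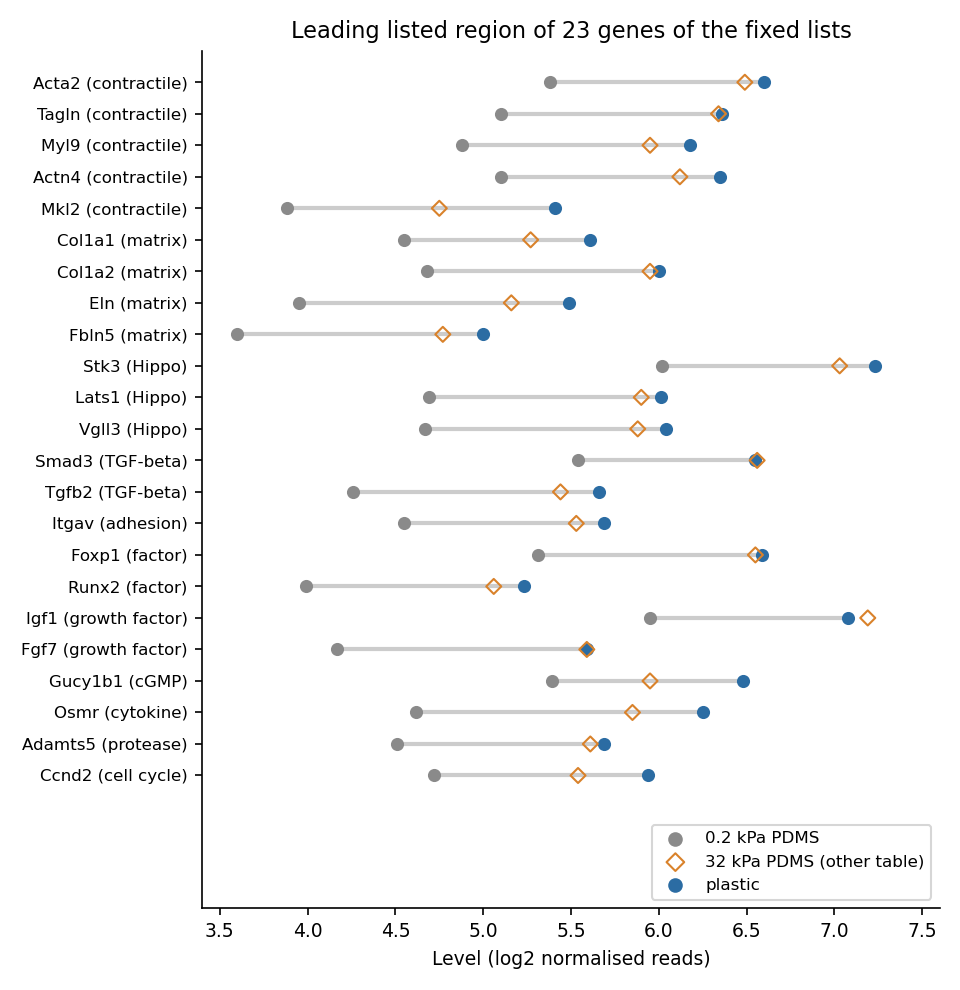
Levels (x axis, log2 normalised reads, authors' means) at the region of largest difference of 23 genes of the fixed lists on 0.2 kPa PDMS (grey), 32 kPa PDMS (open diamonds, from the 32 kPa against plastic table) and plastic (blue). The 32 kPa level lies at the plastic level for Smad3 and Fgf7 and furthest below it for Mkl2 among the genes drawn.

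Transcription factor genes with a listed region included Foxp1, Foxp2, Meis2, Runx2 and Id3. Of 43 AP-1, RUNX and other stimulus or lineage factors, 6 (14.0%) had a listed region, 37 had none, and 8 of 119 comparison regions (6.72%) were overlapped, with a median leading difference of 1.18. Foxp1, a forkhead factor of lung development, had 3 regions, with its intron region at 5.31 on 0.2 kPa, 6.55 on 32 kPa and 6.59 on plastic and its promoter at 4.33 on 0.2 kPa and 5.55 on plastic. The intron region had a difference of 1.28 and an FDR of 0.000695 in the authors' deposited table. Its relative Foxp2 was listed at an exon, with a difference of 1.25 in the authors' deposited table. The promoter of Meis2, a homeobox gene, stood at 5.10 on 0.2 kPa and 6.23 on plastic, with a plastic minus 32 kPa value of -0.3 and an unadjusted p of 0.271 for that pair in the authors' deposited table. Runx2, a RUNX factor of bone formation, had an intron region at 3.99, 5.06 and 5.23, and Id3 a region 3.32 kb upstream at 4.93, 6.08 and 5.99.

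Antifibrotic and growth factor genes were listed at regions away from promoters, with 1 exception. Of 23 genes, 8 (34.8%) had a listed region, 15 had none, and 8 of 52 comparison regions (15.4%) were overlapped, with a median leading difference of 1.06. Igf1, insulin-like growth factor 1, had an intron region at 5.95 on 0.2 kPa, 7.19 on 32 kPa and 7.08 on plastic, with a difference of 1.13 and an FDR of 0.000246 in the authors' deposited table. Fgf7, a growth factor for epithelial cells, had an intron region at 4.17, 5.59 and 5.59, a difference of 1.41 in the authors' deposited table. Fgf2 stood at 5.74, 6.85 and 6.75 in an intron, with a difference of 1.01 and an FDR of 0.00298 in the authors' deposited table. The only promoter was that of Gucy1b1, a subunit of the nitric oxide receptor that makes cyclic GMP, at 5.39, 5.95 and 6.48. Ptger4, a prostaglandin E2 receptor, Fgfr2, Vegfc and Fgf9 had distal regions with differences of 1.25, 1.02, 1 and 1.01 in the authors' deposited table. The region given to Fgf9 lay 430.5 kb away.

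Protease and inhibitor genes were listed mostly in introns. Of 25 genes, 9 (36.0%) had a listed region, 16 had none, and 9 of 65 comparison regions (13.8%) were overlapped, with a median leading difference of 1.13. The promoter of Adam10, a sheddase of cell surface proteins, stood at 5.40 on 0.2 kPa, 6.32 on 32 kPa and 6.47 on plastic, and had the only FDR of at most 0.01 in the list, 0.00478 in the authors' deposited table. The aggrecanase gene Adamts5 had an intron region at 4.51, 5.61 and 5.69. Timp3, an inhibitor of metalloproteinases, had a region 29.8 kb upstream at 4.68, 5.40 and 5.81. Adamts15 was the exception in its order, at 5.41, 6.83 and 6.4. The other members were Adam12, Adamts6, Adamts10, Adamts12 and Mmp23, with differences of 1.22, 1.13, 1.14, 1.11 and 1.03 in the authors' deposited table.

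In each of the remaining process lists the share of listed genes was under the 17% over all genes. In the inflammatory list 3 of 23 genes (13.0%) had a listed region, and 4 of 46 comparison regions (8.70%) were overlapped. Osmr, the receptor of oncostatin M, had an intron region (chr15:6861669-6861949) at 4.62 on 0.2 kPa, 5.85 on 32 kPa and 6.25 on plastic, with a difference of 1.63 and an FDR of 0.00025 in the authors' deposited table. Its promoter stood at 4.45 on 0.2 kPa and 5.72 on plastic. Lif, a cytokine of the same family, and Tnfaip3, an inhibitor of NF-kB, differed by 1.26 and 1.14 in the authors' deposited table. In the lung mesenchyme list 3 of 24 genes (12.5%) were listed, with 3 of 42 regions (7.14%) overlapped. The promoter of the retinoic acid receptor gene Rarb stood at 5.24, 5.96 and 6.32, and regions at the fatty acid transporter gene Cd36 and at Serpinf1 differed by 1.26 and 1.07 in the authors' deposited table.

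Cell cycle genes were listed in 4 of 37 cases (10.8%), with 4 of 56 regions (7.14%) overlapped. The promoter of the cyclin D2 gene Ccnd2 stood at 4.72 on 0.2 kPa, 5.54 on 32 kPa and 5.94 on plastic, with a difference of 1.23 and an FDR of 0.00831 in the authors' deposited table. Rb1, the retinoblastoma gene that restrains the cycle, had an intron region at 4.65 on 0.2 kPa and 5.83 on plastic, and Cdk6 one at 3.97, 4.69 on 32 kPa and 5.11. The region given to Mki67 lay 144.7 kb upstream of it. Of 21 Wnt genes, only Fzd8, a frizzled receptor, was listed (4.76%, with 2 of 37 regions or 5.41% overlapped), at its promoter (4.57, 5.33 and 5.76) and its exon (4.89, 5.37 and 5.95).

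Most motif shares in the listed promoters lay close to those in other open promoters. Shares with the E box and AP-1 letters were lower and the share with the RUNX letters was higher. A RefSeq window of 300 bases (250 before to 50 after the start site) lay under a listed region for 845 promoters, at 684 listed regions. They were set beside 7194 promoters under comparison regions that were not listed and all 32851 promoters of the table, and 11 motifs were searched on both strands. The GC box GGGCGG was found in 71.2% of the listed promoters, 73.7% of the open promoters not listed and 35.7% of all promoters. CCAAT was found in 45.6%, 44.4% and 37.4%, and the ETS letters CCGGAA in 34.4%, 32.6% and 14.9%. The shares with the CArG box and the TEAD letters were also close. The CArG box, given by name because it holds ambiguous letters, was in 12 listed promoters (1.42%), against 1.47% and 1.63%. The TEAD letters CATTCC were in 10.8%, 10.9% and 14.7%, the AP-1 letters TGANTCA in 3.55%, 4.67% and 7.81%, and the RUNX letters TGTGGT in 12.7%, 10.7% and 16.8%.

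The other motifs were less frequent than the TEAD and RUNX letters. The SMAD letters GTCTAGAC were in 0.355% of listed promoters, 0.236% of open promoters not listed and 0.213% of all. The cyclic AMP response element TGACGTCA was in 4.14%, 3.77% and 1.79%, the E box CACGTG in 7.22%, 10.5% and 7.15%, and TATAAA in 4.73%, 4.91% and 13.6%. Matches of different motifs may overlap, and promoters of one gene can share bases. Median GC content was 62.3% in the listed promoters, 63.3% in the open promoters not listed and 52.7% in all promoters.

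The 12 promoters with an exact match to the CArG box included contractile and cytoskeletal genes and others. Promoters with near matches only, such as Acta2, are not among them. Rcn2, a calcium-binding protein of the endoplasmic reticulum, had a box that begins 6 bases before its start site and runs across it, and levels of 6.44 on 0.2 kPa, 7.44 on 32 kPa and 7.55 on plastic. Its FDR was 4.88e-05 in the authors' deposited table. Myadm, a membrane protein gene, stood at 6.37, 7.30 and 7.39, and the microtubule-associated genes Ckap2l and Ckap5 at 6.33, 7.14 and 7.39 and at 4.25, 5.36 and 5.56. Tigar, Creld1, Osbpl11, Sinhcaf (Fam60a in the table), and the head-to-head pair Ergic1 and 1700049J03Rik, which share 1 region, made up the rest with Myl9 and Dnm3os.

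Genes with a microRNA gene within their bounds were about as frequent among listed promoters as among other open promoters. Of 784 genes with a listed promoter in the RefSeq table, 28 (3.57%) had 29 microRNA genes within their bounds. This compares with 265 of 6418 genes (4.13%) with an open promoter and none listed. Strands were not compared, so microRNAs on the strand opposite to the gene are counted too. Dnm3os is a noncoding transcript that carries Mir199a-2 and Mir214, which are known in fibrosis. Its promoter stood at 5.14 on 0.2 kPa, 6.30 on 32 kPa and 6.23 on plastic, with a difference of 1.08 and an FDR of 0.00906 in the authors' deposited table. The mature products from RefSeq are shown with their seeds (bases 2 to 8) in capitals, because the seed sets which messages they pair with, and no 2 of the 4 share a seed.
miR-199a-5p: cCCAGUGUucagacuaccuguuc
miR-199a-3p: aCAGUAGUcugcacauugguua
miR-214-5p: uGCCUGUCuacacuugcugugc
miR-214-3p: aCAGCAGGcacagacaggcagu
Levels of the microRNAs themselves were not measured here.

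Markers of cell types were read in the 32 kPa against plastic table, to check that the cells carried open fibroblast genes. Of 10 fibroblast markers, 9 had a promoter region, with levels on plastic from 2.97 (Thy1) to 8.93 (Vim), and Pdgfrb and Col1a2 both stood at 6.15. Col3a1, Pdgfra and Dcn had promoters at 4.03, 4.06 and 3.9, and Lum had no promoter region. Promoter regions were found for 4 of 14 epithelial markers (at most 4.46), 2 of 13 endothelial markers (at most 3.71), 1 of 11 leukocyte markers (Lyz2, 4.29), none of 6 mesothelial markers and 1 of 8 pericyte and smooth muscle markers (Myh11, 5.45). Regions outside promoters stood higher, up to 5.97 for epithelial (Scgb1a1), 6.92 for endothelial (Cdh5), 5.58 for leukocyte (Ms4a1) and 5.83 for mesothelial markers (Wt1). Distal regions assigned to markers of other cell types did occur in the list of 2114. They were regions of Hopx, Krt19 and Krt8 (3 of 6 epithelial markers with a comparison or listed region), of Emcn, Kdr and Sox18 (3 of 9 endothelial), of Ms4a1 (1 of 3 leukocyte) and of Wt1 (1 of 2 mesothelial). None of these was a promoter, and they lay 1.85 to 193.1 kb from the start site. Of 3 pericyte and smooth muscle markers, Myh11 was listed, at its promoter as given above, and 1 of 3 comparison regions was overlapped. Levels of listed marker regions cannot always be set against the marker levels above, because the nearest gene can differ between the 2 comparisons. The listed regions of Emcn and Hopx stood at 5.93 and 5.53 on plastic. The highest regions given to these genes in the 32 kPa against plastic comparison stood at 3.38 and 5.38. The part of other cell types in the differences was not tested.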

How the data were processed

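Values were taken from 3 deposited tables, each comparing a pair of cultures region by region. Tools named in the submitters' processing notes are BWA, Picard, MACS2 and DiffBind, with the build mm10. Further settings are not given in the sources used here. Per the file headers, the deposited levels are log2 mean normalised reads per culture, and the deposited log2 fold equals the difference of 2 means to within 0.01. The authors computed the deposited p-value and FDR. Plastic and 0.2 kPa were told apart by the plastic level at 653 identical intervals.

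Each culture had 2 libraries, whose depth is unknown, so no test was run here and regions, shares and medians are descriptive. Regions were matched between tables by an overlap of at least 1 bp. Comparison regions had a plastic level of at least 4.94. Genes, distances and annotations were those deposited, and starts were made 1-based. The text names the 10 largest differences, the 5 highest plastic levels, the 5 lowest FDRs, the 3 regions on either side of the limit, genes with 4 regions, the leading promoters of the 3 highest level classes, and genes of 12 process lists, 6 marker lists and 3 families. Genes with 3 regions, CArG promoters, genes with microRNAs within their bounds and extremes against 32 kPa were chosen after their values were seen. The regions and lists were chosen with earlier results of these data known. Alternatives were an FDR of 0.01, autosomes, promoters within 1 kb, no level minimum, regions within 10 kb, an overlap of 50% and windows of 200 bases. The motif search was tested on simulated data. RefSeq promoters were those of GRCm38. Python 3.11.15, pandas 2.3.3, numpy 2.4.6 and scipy 1.17.1 were used.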

Additional observations from a re-analysis of the deposited data

How the results depend on the processing

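No paired analysis was possible because the tables hold 1 mean per culture, and for the same reason no library could be left out. Each of the following values is set against that of the report. With an FDR of at most 0.01 in the authors' deposited table, 692 regions remained, with a median level of 6.44 on plastic and 5.34 on 0.2 kPa. Of them 57.1% were promoters, 19.4% lay in introns and 20.4% between genes. This promoter share stood above the 42.4% of the comparison regions instead of below it, but the levels were unequal. The FDR followed the level, and the comparison regions had a median level on plastic of 5.62. At 7 and above, 809 comparison regions were promoters and 269 were not. Promoter shares at this FDR were not compared at equal level. The median difference of the 692 regions was 1.11, against 1.12. With promoters taken as regions within 1 kb of a start site, their share was 42.2% of the listed and 47.1% of the comparison regions. Without the minimum level, the comparison regions held 19.6% promoters, 37.2% intron and 38.3% intergenic regions, so the promoter share of the listed regions lay above that of the comparison regions.

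Counted by regions within 10 kb of the start site, where 12.2% of all genes had a listed region, the number of genes was 7 for the contractile list, 5 for matrix, 3 for YAP and TAZ, 3 for TGF-beta, 1 for integrins, 1 for lung mesenchyme, 2 for antifibrotic, 4 for proteases, 1 for cell cycle and 7 for olfactory receptor genes. It was 1 each for fibroblast, epithelial and endothelial markers and 0 for leukocyte and mesothelial markers. With an FDR of at most 0.01 in the authors' deposited table it was 4 for YAP and TAZ, 2 for TGF-beta, 1 for integrins, 2 for transcription factors, 1 each for lung mesenchyme, inflammatory, protease and cell cycle genes, 0 for Wnt, 22 for zinc finger and 4 for olfactory receptor genes. It was 1 for fibroblast markers and 0 for epithelial, endothelial, mesothelial and pericyte markers. Of all 2114 listed regions, 692 had an FDR of at most 0.01. The share over all genes was not computed at this FDR, nor the genes per list with any region within 10 kb. The counts in this paragraph are therefore not read against a background.

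In windows of 200 bases the share of listed promoters with a motif was 6.75% for TEAD, 7.93% for RUNX, 65.8% for the GC box, 39.5% for CCAAT, 29.2% for ETS and 2.49% for TATAAA. In the open promoters not listed, the shares were 6.63%, 6.13%, 67.8%, 36.9%, 27.2% and 2.78% in the same order. For the E box it was 5.21%, against 8.20% of the open promoters not listed. Of 69 alternatives in all, 20 stayed within 1.5 times the count or within the 95% interval of the value. Among these, matching by at least 50% of both lengths left 2102 regions and the same median of 0.19 between plastic and 32 kPa. Depth is unknown, so what it limits cannot be shown.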

Other observations

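Olfactory receptor genes, which encode the odorant receptors of the nose, had the highest share of listed genes among the 21 lists. Of 22 such genes with a comparison or listed region, 13 (59.1%) had a listed region, and 14 of 27 comparison regions (51.9%) were overlapped, against 11.7% of all comparison regions. All 14 lay between genes, 1.63 to 47.6 kb from the nearest olfactory start site, none was a promoter, and 4 lay in long terminal repeats. The strongest, 5.99 kb from Olfr311 (chr11:58846943-58847260), stood at 6.03 on 0.2 kPa, 7.09 on 32 kPa and 7.15 on plastic, with an FDR of 0.000265 in the authors' deposited table. The one 1.63 kb upstream of Olfr543 stood at 6.12, 7.18 and 7.15. The regions are assigned by nearest start site only, and the transcripts of these genes were not measured here.

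Zinc finger genes with Zfp symbols were listed at promoters at a share near that of other genes. Of 269 such genes, 50 (18.6%) had a listed region, against 17% of all genes, and 54 of 402 comparison regions (13.4%) were overlapped. Among genes with a promoter among the comparison regions, 31 of 218 (14.2%) had a listed promoter, against 796 of 7269 (11.0%) over all genes. On chromosome 7, 12 of 65 such genes (18.5%) were listed, and on chromosome 17, 8 of 37 (21.6%). The Zfp983 promoter stood at 5.31 on 0.2 kPa, 6.57 on 32 kPa and 6.67 on plastic, with a difference of 1.36 and an FDR of 0.000229 in the authors' deposited table. Zfp281, known from embryonic stem cells, stood at 5.19, 6.16 and 6.41, and Zfp667 at 6.42, 7.12 and 7.44. Of 44 cytosolic ribosomal protein genes, 5 (11.4%) were listed, namely Rpl21, Rpl28, Rpl31, Rpl37 and Rps12. Of their 57 comparison regions, 8 (14.0%) were overlapped. The Rpl37 promoter stood at 6.48, 7.33 and 7.53, with an FDR of 6.83e-05 in the authors' deposited table.

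Regions nearest to noncoding genes made up 254 of the 2114 (12.0%), against 11.1% of the comparison regions. A region 3.41 kb from Mir133b, a microRNA known from muscle, stood at 4.21 on 0.2 kPa, 4.85 on 32 kPa and 5.65 on plastic, with a difference of 1.44 in the authors' deposited table.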
